A study of Caenorhabditis elegans with 2 samples.

Results

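Membrane trafficking coat and tether genes were chosen by name: every protein-coding gene of the WBcel235 annotation whose name begins with sec, vps, syx, snx, trpp, exoc, copa, copb, copd, cope, copg or copz. The rule found 85 of 19973 genes. The study mapped LSY-2, a C2H2 zinc finger transcription factor, by ChIP-seq in whole Caenorhabditis elegans animals at the fourth larval stage. There was 1 group of 2 biological replicates, both from strain OP367 (unc-119(tm4063) III; wgIs367), in which the transgene expresses LSY-2 fused at its C-terminus to GFP and FLAG, with both sexes pooled and chromatin sheared by sonication. The labels do not name the promoter that drives the transgene. Peak lists on the ce11 build were deposited for each replicate, for the replicates pooled and after thresholding by the irreproducible discovery rate (IDR). The IDR is a measure of how reproducible peak ranks are between replicates. The thresholded peaks are the strongest of the pooled list, and not each of them had a match in both replicates. The thresholded list held 5944 peaks with signals of 59.9 to 19064 and a median of 115. The signal is the authors' value per peak, on a scale that no source states. The lists hold no read counts, so that the depth of the libraries is unknown.

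Coat proteins bend a donor membrane into a vesicle and select its cargo, tethers catch the vesicle at its target, and SNAREs such as the syntaxins fuse the membranes. COPII carries cargo out of the endoplasmic reticulum (ER), and COPI carries it back and between Golgi cisternae. The exocyst tethers vesicles at the plasma membrane. ESCRT sorts ubiquitinated proteins into multivesicular endosomes, and HOPS and CORVET tether endosomes and lysosomes. Retromer and sorting nexins return cargo from endosomes. Most of this machinery is used by every cell type, so whole animals do not tell which cells carried the signal.

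LSY-2 summits lay at the promoters of 42 of the 85 trafficking genes (49.4%, exact Clopper-Pearson 95% interval 38.4% to 60.5%), where a promoter is the stretch reaching 1000 bp upstream and 200 bp downstream of any annotated transcript start. Over all protein-coding genes the share was 19.5%, or 3897 of 19973. No test of the gene list was made, and the interval covers counting error over genes only. The strongest summit of these 42 genes had a median signal of 232, with a range of 62.5 to 8395, against a median of 170 over all genes with a promoter summit. Among them, 13 (31%) had a peak in the 500 strongest of the list, against 16.9% of all genes with a summit. No summit was the strongest of more than 1 member, so 42 different peaks were involved.

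**Figure D1:**
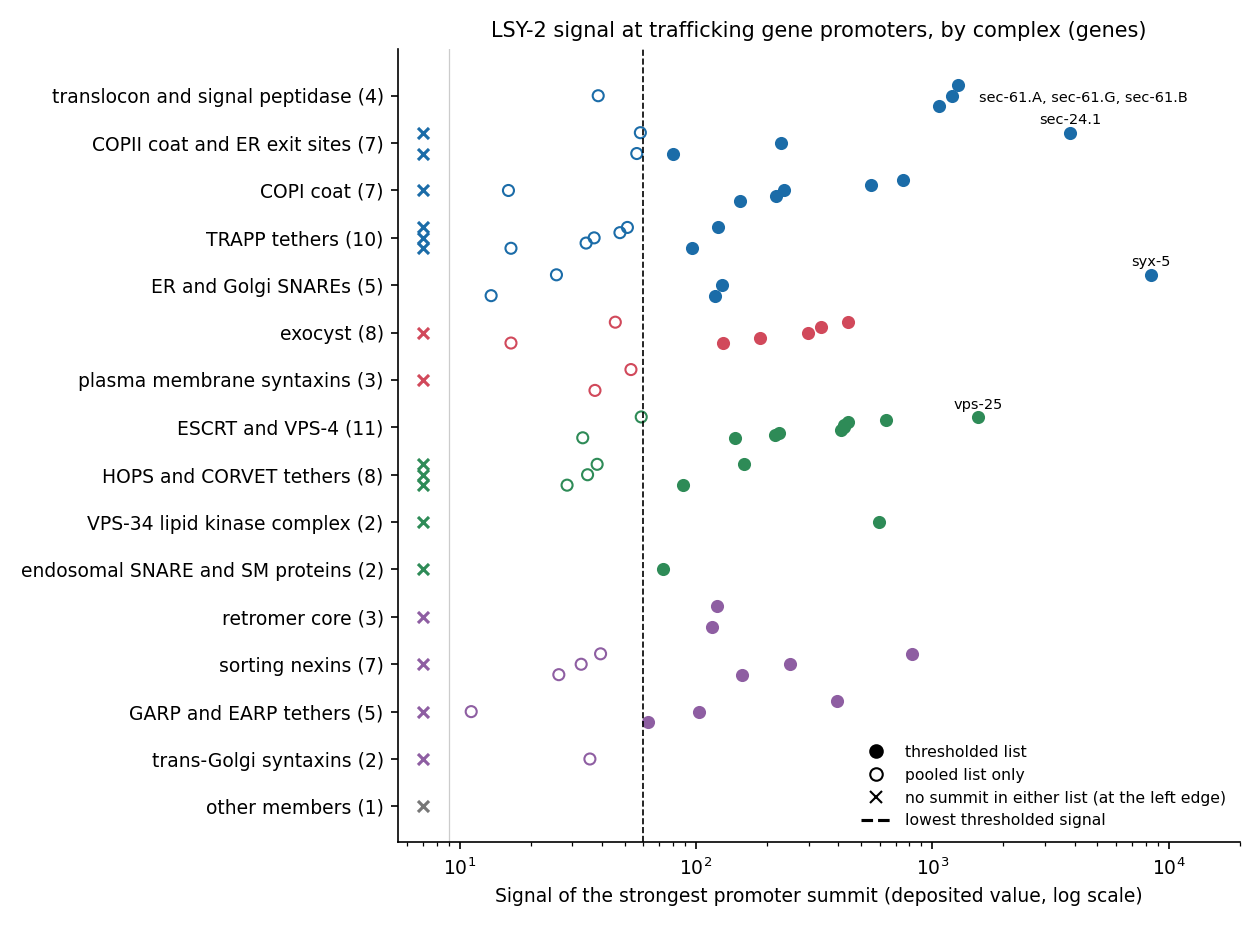
Signal of the strongest promoter summit of each trafficking gene, by complex, with the number of genes in brackets. Filled circles are genes in the thresholded list, open circles are genes found in the pooled list only, crosses at the left edge are genes with a summit in neither, and colours mark the 4 compartments. syx-5 (8395) and sec-24.1 (3825) stand to the right of all other members. The 25 open circles lie to the left of the dashed line at 59.9, as do the crosses.

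Endosome and lysosome genes had 13 of 23 (56.5%, interval 34.5% to 76.8%), ER and early secretory genes 16 of 33 (48.5%, 30.8% to 66.5%), retrograde and recycling genes 8 of 17 (47.1%, 23% to 72.2%) and plasma membrane genes 5 of 11 (45.5%, 16.7% to 76.6%). These intervals overlap widely. With each summit given to the nearest gene only, 11 of 23 endosome and lysosome genes, 11 of 33 early secretory genes, 6 of 17 retrograde genes and 2 of 11 plasma membrane genes had one, against 15% of all genes. Median signals of the genes with a summit ran from 140 for retrograde and recycling genes to 412 for endosome and lysosome genes, with 232 for the early secretory pathway and 299 for the plasma membrane. The spread of shares was wider between complexes than between compartments, but complexes hold fewer genes, so their shares carry more counting error. ESCRT with its ATPase VPS-4 had 9 of 11 genes and the translocon with the signal peptidase 3 of 4. COPI had 5 of 7 and the exocyst 5 of 8. HOPS and CORVET had 2 of 8 (25%) and TRAPP 2 of 10 (20%), near the 19.5% of all protein-coding genes. The interval of ESCRT (48.2% to 97.7%) overlapped those of HOPS and CORVET (3.19% to 65.1%) and of TRAPP (2.52% to 55.6%).

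**Figure D2:**
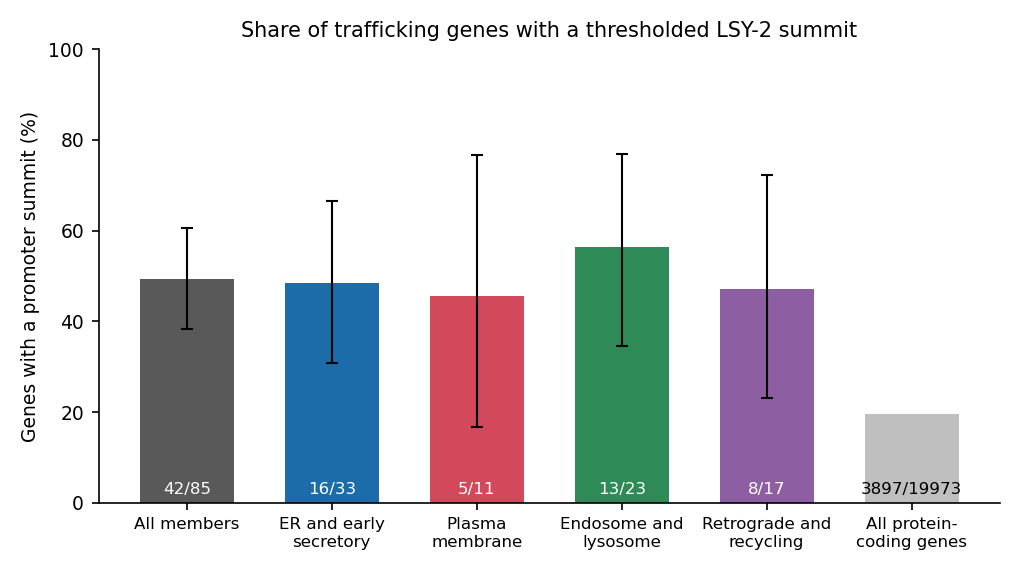
Percentage of genes with a thresholded promoter summit for all trafficking genes, for each compartment and for all protein-coding genes, with counts in the bars. Error bars are exact 95% binomial intervals, which cover counting error over genes only. The 4 compartments lie between 45.5% and 56.5%, and all genes at 19.5%.

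The words GAGAGA and AGACGCAG, which an earlier look at the same peaks had found to be frequent at summits, were searched on both strands within 50 bp of each summit. A word was found at 7 of the 42 members' strongest summits (16.7%), against 28.3% of all 3361 promoter summits, so the windows with a word are a minority, and the strongest summit, that of syx-5, has none. These sets differ in signal (medians 232 and 142), since members are counted at their strongest summit only. To show how the words lie at them, the 6 of highest signal among the 7 are printed below 5′ to 3′ on the strand of the gene, from the RefSeq WBcel235 genome, with the words in capitals. They cover chrIV:11566292-11566392 (minus strand), chrV:10897320-10897420 (minus), chrX:3099976-3100076 (minus), chrV:5592462-5592562 (plus), chrX:8835953-8836053 (minus) and chrII:6601144-6601244 (plus), in the order printed.
sec-24.1: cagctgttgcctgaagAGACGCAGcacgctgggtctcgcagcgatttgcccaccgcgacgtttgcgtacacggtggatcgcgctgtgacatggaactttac
sec-61.G: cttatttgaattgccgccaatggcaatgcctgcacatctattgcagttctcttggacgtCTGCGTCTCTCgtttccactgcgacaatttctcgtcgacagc
sec-3: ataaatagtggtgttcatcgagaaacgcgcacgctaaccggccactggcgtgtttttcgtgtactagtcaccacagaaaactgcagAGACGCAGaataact
vps-37: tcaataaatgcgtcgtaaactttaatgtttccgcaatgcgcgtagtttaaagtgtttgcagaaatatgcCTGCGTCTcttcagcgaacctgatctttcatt
sec-15: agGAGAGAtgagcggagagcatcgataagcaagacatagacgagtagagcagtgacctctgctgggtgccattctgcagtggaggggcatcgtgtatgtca
vps-33.2: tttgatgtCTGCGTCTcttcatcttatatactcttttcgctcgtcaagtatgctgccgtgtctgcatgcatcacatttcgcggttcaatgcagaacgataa

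AGACGCAG, or its reverse complement CTGCGTCT, was in 5 of the 6 windows, and GAGAGA in those of sec-15 and sec-61.G, where the words overlap. Among the 42 strongest summits of trafficking genes, AGACGCAG was found at 5 (11.9%), near the 9.91% of all promoter summits. GAGAGA was found at 3 (7.14%), the third being that of vps-45, against 23.1% of all promoter summits. Within 100 bp to either side, GAGAGA was at 10 (23.8%) of the members' summits, against 35.1% of all promoter summits. The median GC content within 50 bp of the summit was 44.6% at the members' summits and also at all promoter summits, with SDs over summits of 8.4 and 7.82 percentage points. A match describes letters in a window and does not show a binding site.

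The strongest peaks among the members were those of syx-5 and sec-24.1, both counted as early secretory genes. The median signal was higher for endosome and lysosome genes (412) than for early secretory genes (232). The syntaxin gene syx-5, whose product drives fusion at the Golgi, had a signal of 8395 and ranked 8 among all thresholded peaks (peak at chrV:11764147-11764944). Its signal was 4965 in replicate 1 and 3431 in replicate 2, where it ranked 8 and 9. The summit was intergenic, 363 bp upstream of syx-5 and nearer to the divergent gene F55A11.1, whose window it shares. The COPII cargo adaptor gene sec-24.1 followed with a signal of 3825 and rank 30 (chrIV:11566113-11566552). It had 2126 in replicate 1 and 1712 in replicate 2, and its summit, 148 bp upstream, lay in the window of no other gene.

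COPII genes differed widely in signal. Besides sec-24.1, the ER exit site scaffold gene sec-16A.2 had a signal of 229 (143 and 83.8 in replicates 1 and 2), and sec-31, of the outer COPII coat, had 79.9 (45.1 and 25.2). The inner coat genes sec-23 and sec-24.2 missed the thresholded list narrowly, with pooled signals of 58.2 and 56.2 against its lowest of 59.9, and each had a weak summit in both replicates. Within their windows, the paralogues sec-24.1 and sec-24.2 were thus far apart, at ranks 30 and 6359. A thresholded peak of signal 359 lay 1109 bp upstream of sec-24.2, outside its window. No promoter summit was found in either the thresholded or the pooled list for sec-12, the exchange factor that starts COPII assembly, or for sec-16A.1. sec-16A.1 had a summit of signal 70.2 in replicate 1, ranked 3007, and none in replicate 2.

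The 3 subunits of the Sec61 channel, through which nascent proteins enter the ER, had similar strong signals. sec-61.A had 1290, sec-61.G 1207 and sec-61.B 1067, at ranks 140, 148 and 163. In replicate 1 they had 871, 695 and 603, and in replicate 2 435, 512 and 466. Each of these summits was shared with a neighbouring gene. That of sec-61.B was shared with trap-3, which encodes a subunit of the translocon-associated protein complex, and lay 455 bp from sec-61.B and nearer to trap-3. That of sec-61.A lay 181 bp inside its 5′ UTR and in the window of the ribosomal protein gene rps-18. The signal peptidase gene sec-11 had a summit in the pooled list only (signal 38.6).

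COPI genes had summits at 5 of 7. The γ subunit gene copg-1 reached 753 (484 in replicate 1 and 273 in replicate 2) and the ζ subunit gene copz-1 had 548 (276 and 274), followed by copa-1 (235), copd-1 (218) and cope-1 (154). The β and β′ subunit genes copb-1 and copb-2 had none. copb-1 had 16.1 in the pooled list, and a peak of signal 6225 lay 1677 bp upstream, outside its window and close to the divergent gene Y25C1A.8.

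Among the other SNARE genes of the ER and Golgi, sec-22 had 129 and syx-18 121, both below the median of all genes with a summit, while sec-20 and syx-17 had 25.7 and 13.6 in the pooled list only. The TRAPP tethers, all counted by name with the early secretory genes, had summits at trpp-9 (124, with 79.4 in replicate 1 and 42.8 in replicate 2) and trpp-10 (96.5). Another 5 TRAPP genes appeared in the pooled list alone, led by trpp-4 (51.3) and trpp-8 (47.7), and trpp-1, trpp-6 and trpp-12 had no summit there.

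At the plasma membrane, the exocyst divided into genes of moderate signal and genes without a summit. sec-3 reached 439 (256 in replicate 1 and 183 in replicate 2), sec-15 had 337 (196 and 141) and exoc-7 had 299 (165 and 130). sec-5 had 186 and exoc-8 had 130. sec-10 (45.6) and sec-6 (16.5) were in the pooled list only. sec-8 was in neither list, although each replicate had a weak summit in its window, of 35.8 in replicate 1 and 23.6 in replicate 2. The plasma membrane syntaxin genes that the name rule caught, syx-2, syx-3 and syx-4, had none in the thresholded list. In the pooled list syx-3 had 53.1 and syx-2 37.4, and syx-4 was in no list.

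Summits were found at genes of ESCRT-I, ESCRT-II and ESCRT-III, though not at every gene. Of ESCRT-II, vps-25 had 1567 (936 in replicate 1 and 654 in replicate 2) and vps-22 had 440 (247 and 193), while vps-36 was in the pooled list only. Of ESCRT-III, vps-32.1, the main filament subunit, had 640 (383 and 258), vps-60, an accessory subunit, had 412 (227 and 193), vps-2 had 217 and vps-24 had 147. vps-20, which links ESCRT-II to ESCRT-III, had 58.7, just under the lowest thresholded signal. Of ESCRT-I, vps-37 had 423 (254 and 189) and vps-28 had 225. The gene of the disassembly ATPase, vps-4, had 425 (232 and 195). vps-25, vps-32.1 and vps-2 were the members with more than 1 summit in the window.

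HOPS and CORVET genes had a thresholded summit at 2 of 8 (25%), near the 19.5% of all protein-coding genes. Only the paralogues of the SM subunit were in the thresholded list, with 160 at vps-33.1 (100 in replicate 1 and 64.5 in replicate 2) and 88 at vps-33.2, whose summit lay in an intron of epg-5. vps-39 (38.2), vps-18 (34.8) and vps-8 (28.5) were in the pooled list only, and vps-11, vps-16 and vps-41 were in neither. Of the lipid kinase complex that marks endosomes with phosphatidylinositol 3-phosphate, the regulatory gene vps-15 had 593 (365 and 226), and the catalytic gene vps-34 had no summit. The SM gene vps-45 had 72.6 (45.5 and 32.3), and the endosomal syntaxin gene syx-7 had none.

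In retrograde traffic, the sorting nexin gene snx-3, known for Wntless recycling in worms, led with 821 (523 in replicate 1 and 298 in replicate 2). snx-13 had 249 (143 and 107) and snx-1 had 157 (89.8 and 72.8). snx-6 (39.5), snx-27 (32.7) and snx-17 (26.3) were in the pooled list only and snx-14 in neither. Of the retromer genes, vps-26 had 123 (71.5 and 51.9) and vps-35 had 117, while vps-29 had none. Of the GARP and EARP tethers, vps-51 had 395 (224 and 170), vps-50, specific to EARP, had 103 and vps-52 had 62.5, the lowest of all members in the list. vps-53 had 11.2 in the pooled list and vps-54, specific to GARP, had none. The trans-Golgi syntaxin genes syx-16 (35.6, pooled list only) and syx-6 and the lipid transfer gene vps-13 had no thresholded summit.

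The 43 trafficking genes without a thresholded summit included 25 with a summit in the pooled list, at signals of 11.2 to 58.7 and a median of 35.6. That is 58.1% of the 43, against 19.4% of the 16076 protein-coding genes without a thresholded summit. Of these 25 genes, 20 had a summit in their window in each replicate as well, and the share over all genes was not counted. The pooled and replicate lists also hold background regions, so a summit found only there need not be a peak. Of the other 18, 16 had none in either replicate. sec-16A.1 alone among the 43 had a peak among the 5944 strongest of a replicate. A thresholded summit lay 1000 to 2000 bp upstream, outside the window, at 12 of the 43 (27.9%), and the share over all genes was not counted.

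Position and neighbours were then described, since the windows of adjacent genes overlap. The members' summits lay a median of 164 bp upstream of the annotated start, with quartiles of 36.2 and 308 bp, against 226 bp (123 and 424 bp) over all genes with a promoter summit. The 26 members of signal above 170, the median of all genes with a summit, had their summits at a median of 234 bp upstream, and the 16 weaker ones at 36.5 bp. Over all genes the corresponding medians were 226 bp and 225 bp. Summits beyond 500 bp were those of vps-32.1 (652 bp), vps-22 (616 bp), copd-1 (526 bp) and vps-15 (523 bp). Of the 42 summits, 35 were intergenic, 4 were in a 5′ UTR, 2 in an intron and 1, that of vps-26, in a coding exon of that gene.

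**Figure D3:**
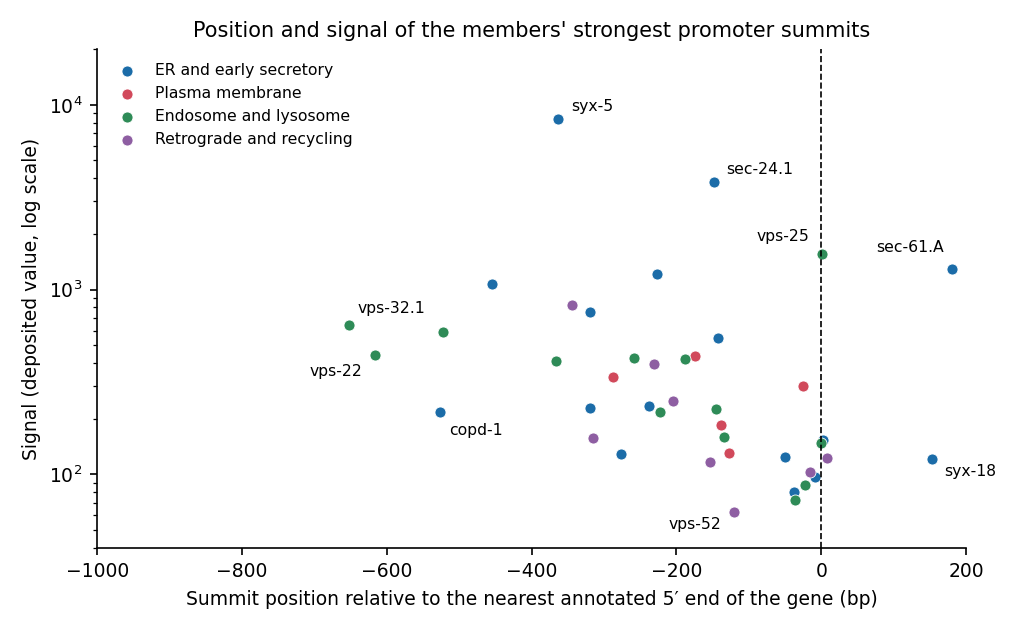
Position of the strongest summit of the 42 trafficking genes with a thresholded one, in bp from the nearest annotated 5′ end of that gene (negative is upstream), against its signal on a log axis, coloured by compartment. Summits of signal above 170 have a median position 234 bp upstream, and the weaker ones 36.5 bp.

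Of the 42 summits, 23 (54.8%) lay in the window of another protein-coding gene too, against 45.9% of the 3897 genes with a promoter summit, each counted at its strongest one, so that for these the signal cannot be assigned to 1 gene. The neighbour had the nearest 5′ end at 13 of the 42, those of syx-5, sec-61.B and snx-3 among them. With each summit given to the nearest gene only, 30 of the 85 members (35.3%) had one, against 2999 of all genes (15%). Among the shared summits were that of vps-51 with lin-35, the Retinoblastoma homologue, and that of vps-32.1 with icd-1, a subunit of the nascent polypeptide-associated complex. snx-13 shared its summit with snr-1, an Sm protein gene, vps-24 with the translation initiation factor gene eif-1, and sec-22 with stau-1, the Staufen homologue. The 19 summits in no other window included those of sec-24.1, copg-1, sec-3, vps-4, vps-37 and vps-60.

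Among the 3 arrangements of the upstream gene that did not overlap the member, summits were most frequent where that gene pointed the other way. Trafficking genes with a divergent neighbour had a summit at 27 of 40 (67.5%), against 26.4% of all such genes. With a same-strand neighbour more than 500 bp away the count was 5 of 14 (35.7%, against 13.1%), and with a same-strand gene ending within 500 bp it was 8 of 29 (27.6%, against 16.1%). The 2 members that overlap their upstream neighbour, vps-22 and vps-33.2, both had a summit, against 16.9% of all such genes. Many worm genes are transcribed in operons, in which a downstream gene follows the gene before it closely and may have no promoter of its own. Operon annotation was not used here, and close spacing alone does not show an operon. Of the 43 members without a summit, 21 followed a same-strand gene within 500 bp, and for 11 of these (52.4%) that upstream gene had a thresholded promoter summit, against 25.5% of 2970 genes of the same arrangement. In falling order of signal they were trpp-11 behind rps-29 (signal 2147), trpp-3 behind prp-40 (551), vps-16 behind txdc-9 (430), sec-6 behind bmy-1 (277), sec-11 behind rpb-7 (267), vps-8 behind tag-335 (185), vps-29 behind ZK1128.1 (166), trpp-8 behind xrep-4 (132), trpp-1 behind arid-1 (120), syx-6 behind gcc-1 and syx-17 behind mog-7 (78.6). This arrangement was examined after the members' values were seen.

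**Figure D4:**
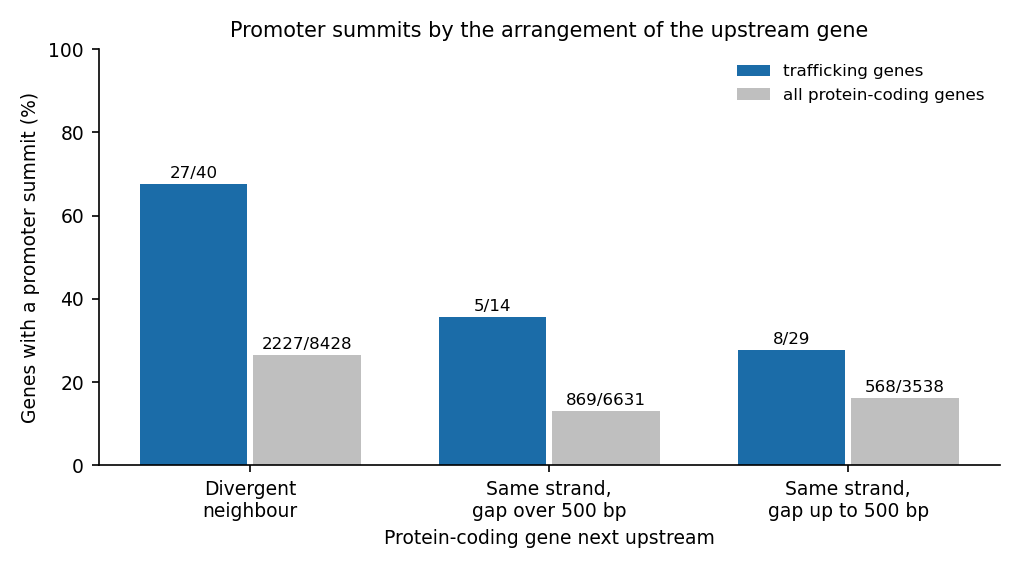
Percentage of genes with a thresholded promoter summit by the orientation and distance of the next protein-coding gene upstream, for trafficking genes (blue) and all protein-coding genes (grey), with counts above the bars. Trafficking genes with a divergent neighbour reach 67.5% and those closely behind a same-strand gene 27.6%. The 2 members that overlap their upstream neighbour, both with a summit, are not drawn.

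Genes with several transcript starts offer more windows. Members with 1 annotated start had a summit at 29 of 59 (49.2%), against 15.5% of all such genes, and members with more than 1 at 13 of 26 (50%), against 30.2%. Among the 10896 genes with a gene class name, as all members have, the share was 24.3%. By chromosome, members had summits at 9 of 19 on chromosome I (47.4%, against 28.6% of all genes there), 8 of 14 on II (57.1%, against 19.7%) and 5 of 13 on III (38.5%, against 31.7%). On IV they had 7 of 12 (58.3%, against 18.5%), on V 5 of 13 (38.5%, against 11.3%) and on X 8 of 14 (57.1%, against 14.1%). The difference was smallest on III.

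Replicate signals followed each other at the members. All 42 summits had a matching summit within 200 bp in each replicate, as did 97.9% of all promoter summits. The thresholded list was made from these same replicates. Each replicate list holds 30000 peaks and background regions, so a match was likely from the outset. Of the 42, 39 (92.9%) had the match among the 5944 strongest peaks of each replicate, against 80.7%. Members are counted at their strongest summit (median signal 232), whereas all promoter summits include weaker ones (median 142), so these sets are unlike in signal. Replicate 1 was higher than replicate 2 by a median of 0.49 on the log2 scale at the members' summits (SD 0.35 over 42 summits) and at all promoter summits (SD 0.56). No member departed from that median by more than 2-fold. The largest departures were at vps-24 (105 in replicate 1 and 40.9 in replicate 2), sec-22 (92.6 and 37.5), trpp-10 (68.1 and 28.3) and vps-2 (160 and 66.8), and, in the other direction, at vps-33.2 (41.4 and 47.5) and syx-18 (59.9 and 66.3). Apart from vps-2, each of these had a signal below 170 in the thresholded list.

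**Figure D5:**
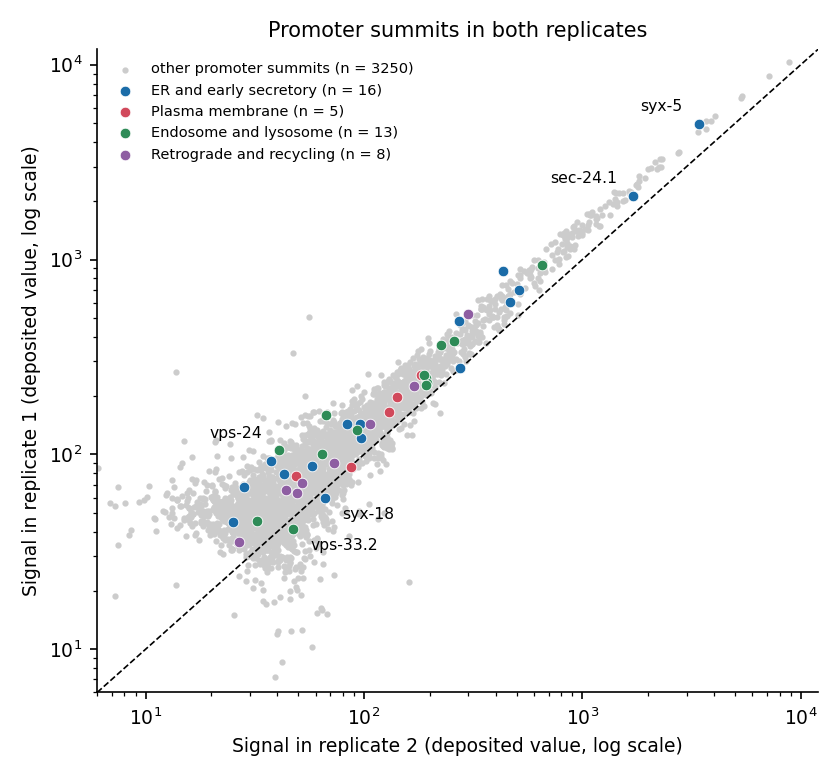
Signal in replicate 1 (vertical) against replicate 2 (horizontal), both on log axes, at the strongest promoter summits of the 42 trafficking genes, coloured by compartment, and at the other promoter summits matched in both replicates (grey). The dashed line marks equal signal. Members lie along the same band as the other summits, mostly above the line, by a median log2 difference of 0.49.

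Other genes of the pathway, which carry names outside the rule, were counted from a list of 73 names, of which 69 matched a gene. A promoter summit was found at 45 of the 69 (65.2%), with a median signal of 198, against 19.5% of all genes. With each summit given to the nearest gene only, 37 had one, against 15% of all genes. Some summits are shared with members, as that of trap-3 with sec-61.B. All 10 genes of the ER and COPII group had one, among them trap-2 (1536), trap-1 (835), the signal peptidase gene spcs-2 (531) and sar-1, the GTPase that recruits the COPII coat (380). Clathrin and adaptor genes had 12 of 16, such as aps-3 (997), apb-1 (716) and the clathrin heavy chain gene chc-1 (103). Rab GTPases and their effectors had 11 of 18, led by rab-11.1 (2336) of recycling endosomes and rab-18 (938), with the endosomal rab-7 at 525 and rab-5 at 325. COG tethers and other Golgi genes had 6 of 8, led by cogc-2 (315), and ESCRT genes with other names had 3 of 6, led by did-2 (198). The ESCRT genes hgrs-1, tsg-101 and alx-1 had none. SNARE fusion genes had 3 of 11, namely nsf-1 (248), nbet-1 (244) and use-1 (214).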

How the data were processed

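ChIP-seq peak lists of 2 biological replicates of whole worms were used, on the ce11 build. Per the deposited notes, the authors set each ChIP alignment against a control, which was not analysed here. No source used here names the aligner, the IDR threshold or the program that found the peaks. Each deposited signal value is the authors' own, used for description and ranks within a list. The replicate and pooled lists hold 30000 peaks and background regions each, and all 5944 thresholded peaks equal the strongest 5944 of the pooled list. The ce10 lists were not used. Summits were placed on transcript 5′ ends of Ensembl release 115 (WBcel235, the ce11 sequence). For each gene the strongest summit in a window was taken, at the 5′ end nearest to it. Replicate summits were matched within 200 bp. A shared summit counts for every gene whose window holds it.

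Members, compartments, words and the other pathway genes were chosen with earlier results of these data known. All members may be named. Both replicate signals are given for the 20 strongest members, for the strongest of each complex, and for any member over 2-fold from the median replicate difference. Additional members for which they are printed were picked after their values were seen. With 1 group of 2 replicates, no test was made, and p-values are not given. The names arf-1.2, arf-3, cogc-7 and rab-2 matched no gene. The window and matching code was tested on simulated data. Intervals came from SciPy 1.17.1 and figures from matplotlib 3.10.9, under Python 3.11.15 with pandas 2.3.3 and numpy 2.4.6.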

Additional observations from a re-analysis of the deposited data

How the results depend on the processing

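Counts of members with a promoter summit stayed within 1.5 times of 42 under every alternative but the full pooled list of peaks and background regions, which gave 67 (78.8% of members, against 35.1% of all genes). The others gave 36 with the strongest 2972 peaks (13.4% of all genes), 39 with a window of 500 bp (16.1%), 54 with 2000 bp (23.9%), 44 with the whole peak interval (20.3%) and 30 with each summit given to the nearest gene only (15%). Replicates taken alone gave 40 to 42 (19.7% each). With the full pooled list the compartments had 27 early secretory, 9 plasma membrane and 13 retrograde genes, and with the nearest gene only 2 plasma membrane genes. Of the 24 genes given in full, 8 lost their summit to a nearer neighbour there: syx-5, sec-61.B, snx-3, vps-15, copz-1, vps-22, vps-51 and sec-15. vps-32.1 kept a summit there only through a weaker one, since its summit of signal 640 was nearer to icd-1. The 500 bp window lost vps-15 and vps-22, and the strongest 2972 peaks lost vps-45. The members' median signal was 318 with the strongest 2972 peaks, against 242 over all genes with a summit. It was 123 with the full pooled list (75.2 over all genes) and 189 with the nearest gene only (152). In the replicates alone, whose scales differ, the members' median was 102 to 144 (72.6 to 102 over all genes). GAGAGA was at 10 summits within 100 bp, against 3 within 50 bp. No paired analysis was possible because there was only 1 group. Depth is unknown, so that a missing summit does not show absence of LSY-2.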
